A study of Mus musculus with 47 samples.

Results

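The genes of the MHC class II pathway in mouse dendritic cells are described here: the transactivator Ciita, the invariant chain Cd74, the classical class II chains H2-Aa, H2-Ab1 and H2-Eb1, the peptide-exchange chains H2-DMa, H2-DMb1 and H2-DMb2, and their inhibitory partners H2-Oa and H2-Ob. They were chosen by symbol and are 10 of the 21000 genes in each of 47 RNA-seq libraries, and all 10 passed the filter on low counts in every comparison. The libraries hold expected counts per gene from mouse monocyte-dendritic cell progenitors (MDP), common dendritic cell progenitors (CDP), precursors of type 1 and type 2 classical dendritic cells (pre-cDC1, pre-cDC2) and the mature cells (cDC1, cDC2). The H2 genes lie on mouse chromosome 17 between 34092379 (H2-Oa) and 34316674 (H2-Eb1), and Ciita on chromosome 16 from 10480014 to 10531064, by RefSeq on GRCm38.p6. Wild-type cells were taken directly from bone marrow or spleen, or grown from bone marrow with the cytokine Flt3L. Cultured pre-cDC1 also came from marrow lacking the +32 kb enhancer of Irf8 (d+32), heterozygous for that deletion (d+32het) or heterozygous for deletion of the +56 kb enhancer (d+56het). Irf8 encodes a transcription factor on which cDC1 depend. A last set of cultured cDC1 was made from lineage-negative cells: wild-type cells with the retroviral vector MSCV, and d+32 or d+56 cells given IRF8. Age is not given, and nothing says that replicates of a group came from separate animals or cultures, so p-values measure the spread between libraries, which may be technical.

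MHC class II molecules present peptides from internalised proteins to CD4+ T cells. CIITA does not bind DNA itself. It is recruited to class II promoters by a complex of RFX, CREB and NF-Y factors that sits on the X and Y boxes, and it drives the classical chains, the invariant chain and H2-DM together. The invariant chain blocks the peptide groove until it is degraded in the endosome, H2-DM then removes its last fragment and edits peptides, and H2-O restrains H2-DM. Dendritic cells make all of these, and their precursors gain them as they commit.

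Some of the promoters hold both elements. RefSeq promoter windows on GRCm38.p6, from 250 bases before to 50 bases after a gene's start, were at hand for 7 of the 10 members, in 8 windows, all on chromosome 17. The motifs were picked after the sequences had been read and were searched on both strands: AACNNATGA, a core of the X box, and TGATTGG, the Y box with its inverted CCAAT. The X-box core was found in 4 of the 7 members and the Y box in 6, while 2.85% and 7.82% of all 32851 windows hold them, and 0.307% hold both. As the letters were picked after reading, these shares are a description and no test. H2-DMb1, H2-DMb2, H2-Ob and H2-Eb1 hold both, X before Y on the same strand, with 20, 20, 17 and 19 bases between them. The stretches around the matches are shown so that this spacing can be seen, with X-box core and Y box in capitals.
H2-Eb1, chr17:34305748-34305834, plus strand: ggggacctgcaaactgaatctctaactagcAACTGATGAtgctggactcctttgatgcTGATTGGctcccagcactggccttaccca
H2-DMb1, chr17:34153069-34153156, plus strand: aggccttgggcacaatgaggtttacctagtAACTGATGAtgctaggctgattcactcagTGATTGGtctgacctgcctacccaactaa
H2-DMb2, chr17:34145098-34145185, plus strand: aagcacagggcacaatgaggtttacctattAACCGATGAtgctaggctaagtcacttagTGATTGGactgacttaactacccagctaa
H2-Ob, chr17:34238790-34238874, plus strand: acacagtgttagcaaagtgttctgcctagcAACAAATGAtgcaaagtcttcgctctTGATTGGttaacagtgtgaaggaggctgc
H2-Aa, chr17:34287845-34287903, minus strand: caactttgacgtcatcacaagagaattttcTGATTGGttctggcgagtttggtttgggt
H2-Oa, chr17:34092304-34092362, plus strand: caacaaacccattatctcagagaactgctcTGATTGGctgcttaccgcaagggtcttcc
The H2-Aa and H2-Oa windows hold the Y box, 50 and 45 bases before the start, and no match to these X-box letters. Neither H2-DMa window holds either motif. H2-DMb1 and H2-DMb2 are near-identical neighbouring copies, visible in the shared bases around their boxes, so reads can be split between them and their separate values are uncertain.

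A narrow range of raw counts limits what can be read from several members. Library totals ran from 14660655 to 43084069 (median 28884353). In the 34 libraries of splenic pre-cDC1, splenic cDC1 and all cultured cells beyond the CDP stage, totals varied 2.62-fold, but raw counts of H2-Aa ran only from 1650 to 1914, of H2-Ab1 from 1816 to 2107 and of H2-Eb1 from 1590 to 2091. Over the same libraries Cd74 ran from 156698 to 1486247, Ciita from 14523 to 92827 and H2-DMa from 12268 to 48222. H2-Aa, H2-Ab1 and H2-Eb1 each have 1 curated RefSeq transcript. Of the 12417 such genes 0.475% ever passed 2 counts per base in any library, against 23.9% of the 8082 genes with 2 or more curated transcripts. These sets also differ in level, with median highest counts per base of 0.0158 and 0.477. As raw counts of the 3 classical chains stayed narrow, their CPM, the counts scaled by library size, fell as depth rose in these 34 libraries. Levels cannot be set side by side between members. The cause was not tested. H2-Oa, from 478 to 1112, and H2-Ob, from 1064 to 2515, varied 2.33-fold and 2.36-fold, less than the totals did, and with 1 curated transcript each they reached at most 1.02 and 0.942 counts per base. H2-DMb1 also has 1 curated transcript and is an exception, at up to 7.97 counts per base.

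**Figure D1:**
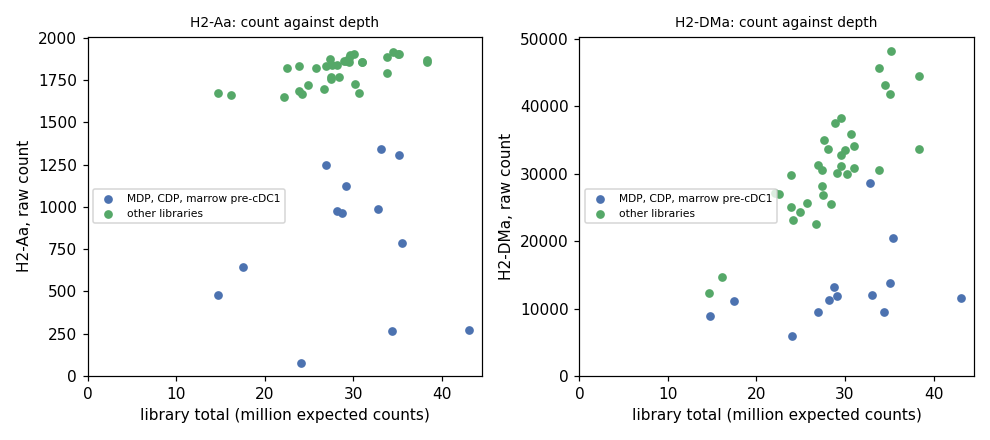
Raw count of H2-Aa (left) and H2-DMa (right) in each of the 47 libraries against the library total; blue, MDP, CDP and marrow pre-cDC1; green, the other libraries. Green H2-Aa counts stay between 1650 and 1914 at every depth, while H2-DMa counts climb with depth, from 12268 to 48222.

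Titles and file names exchange the cell types for replicates 1 and 2 of cultured cDC1 and of cultured pre-cDC2, so these 4 libraries were left out of the tests and each group stands on replicate 3. The 8 cDC1 markers summed to 3710 to 3720 CPM and the 8 cDC2 markers to 277 to 422 in the pair titled pre-cDC2, and to 1160 to 1170 and 2290 to 3170 in the pair titled cDC1. Cultured cDC1 replicate 3 had 3350 and 438, so the pair titled pre-cDC2 was the nearer to it, as the file names have it. The library labelled pre-cDC2 that remains has the cDC1 markers at 2100 CPM, where wild-type pre-cDC1 have 1740 to 2080 and cDC2 572 to 678. Its cDC2 markers, at 1400 CPM, and its 8 monocyte and macrophage markers, at 378, lie above those of wild-type pre-cDC1, at 503 to 662 and 101 to 116. There is 1 library of CDP from marrow and 1 of cDC1 from spleen. Bulk RNA cannot tell fewer cells of a type from less RNA per cell.

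Ciita was lowest in primary MDP and highest in splenic cDC1 and cultured cDC2. In primary MDP it was at 0, 15.5 and 0 CPM, in primary CDP at 63.5, and in marrow pre-cDC1 at 133, 164 and 132. Splenic pre-cDC1 had 965, 768 and 1535 CPM and splenic cDC1 2781. The primary stages rise in that order and no neighbouring pair among those with 3 libraries overlaps. In culture Ciita was at 310, 241 and 232 CPM in MDP and at 109, 144 and 156 in CDP, then at 1413, 1309 and 1303 in pre-cDC1. Cultured cDC2 had 2659, 2736 and 2942 CPM, above every other group but the single splenic cDC1 library, and the cultured cDC1 library had 2077. By group mean the order ran from splenic cDC1 and cultured cDC2 through cultured cDC1, the transduced cDC1 and d+32 pre-cDC1 to d+32het and wild-type pre-cDC1. Below these came the pre-cDC2 library, splenic pre-cDC1, d+56het pre-cDC1, cultured MDP, marrow pre-cDC1, cultured CDP, primary CDP and primary MDP. Neighbours in that order overlapped except at cDC2 over cDC1, d+32 over d+32het, wild-type pre-cDC1 over pre-cDC2, d+56het over cultured MDP, cultured MDP over marrow pre-cDC1, and each step below cultured CDP.

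From MDP to wild-type pre-cDC1 the Cd74 means moved with those of Ciita, over a wider range. Among cultured pre-cDC1 they parted. In d+32 the Ciita mean was 1784 CPM against 1342 in wild type, and the Cd74 mean 11160 against 21750. Primary MDP had 46.8, 54.8 and 9.20 CPM, primary CDP 654, and marrow pre-cDC1 458, 605 and 1410. Splenic pre-cDC1 had 10170, 10080 and 26650 CPM and splenic cDC1 44740, the highest of all 47 libraries. Cultured MDP had 1407, 1563 and 1527 CPM, cultured CDP 755, 948 and 1308, and cultured pre-cDC1 22090, 23640 and 19510. Cultured cDC2 had 25740, 24010 and 23620 CPM, and the cultured cDC1 library 24920. In the order of Cd74 means neighbours did not overlap at splenic over cultured cDC1, d+32het over d+56het pre-cDC1, d+56het over cultured MDP, cultured MDP over CDP, and primary CDP over MDP. Splenic pre-cDC1 replicate 3 stands apart from replicates 1 and 2 in both genes, and among marrow pre-cDC1 replicate 3 does so in Cd74. In the splenic cDC1 library 8 B-cell markers summed to 200 CPM, with none at 0, and 10 maturation genes to 2090. In the cultured cDC1 library these sums were 31.9 and 516 CPM. Their part in the Ciita and Cd74 levels of splenic cDC1 was not tested.

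**Figure D2:**
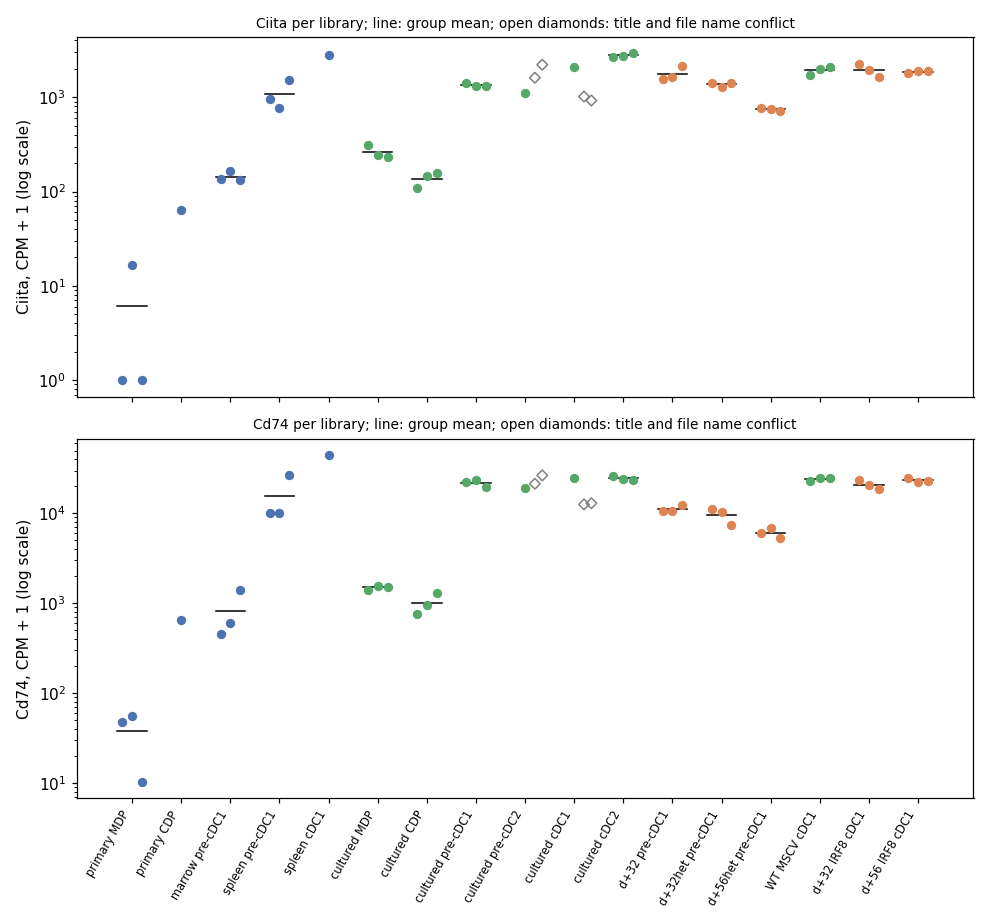
CPM + 1 on a log scale of Ciita (top) and Cd74 (bottom) in every library, by group; points are libraries, lines are group means, open diamonds are the 4 libraries whose title and file name conflict. Primary MDP are lowest in both genes, and d+56het pre-cDC1 sit below wild-type pre-cDC1.

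In culture the members were higher in pre-cDC1 than in CDP. All 10 members rose, where 23.3% of all genes were called in either direction (edgeR quasi-likelihood test, adjusted p under 0.05). Cd74 rose by 4.44 on the log2 scale (SE 0.18, adjusted p = 4.37e-09) and Ciita by 3.30 (SE 0.15, adjusted p = 1.5e-08). H2-DMb2 and H2-DMb1 rose by 2.63 and 2.34, H2-Oa by 1.64, H2-Eb1 and H2-Ob by 1.52 each, H2-DMa by 1.47, H2-Aa by 1.01 and H2-Ab1 by 0.97. The values of the classical chains carry the limit on high counts given above. From MDP to CDP Ciita fell by 0.94 (SE 0.14, adjusted p = 0.00605), the only member called among 1.04% of all genes, and with replicates 1 and 2 alone the call was lost (adjusted p = 0.0734). Without CDP replicate 3 Cd74 was called as well (-0.82, adjusted p = 0.0102).

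H2-DM was present before commitment. H2-DMa stood at 261, 258 and 215 CPM in primary MDP and at 385, 350 and 336 in cultured MDP, while Ciita was at 0 to 15.5 CPM in the former. In cultured pre-cDC1 it reached 1094, 1199 and 1074 CPM, and the cultured cDC1 library had 1489. H2-DMb1 went from 30.4, 34.5 and 34.2 CPM in primary MDP to 289, 317 and 279 in cultured pre-cDC1, and H2-DMb2 from 19.7, 24.2 and 22.1 to 285, 309 and 265. H2-Oa was at 4.38, 4.32 and 2.90 CPM in primary MDP, at 7.29, 8.66 and 9.01 in marrow pre-cDC1, at 28.3, 27.0 and 23.6 in splenic pre-cDC1 and at 30.4, 33.4 and 27.9 in cultured pre-cDC1. Marrow libraries lay below all splenic and cultured pre-cDC1 libraries, and splenic and cultured ones overlapped.

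The classical chains were detected in MDP at low counts. H2-Eb1 was at 1.44, 1.44 and 0 CPM in primary MDP, at 11.2, 16.9 and 16.6 in marrow pre-cDC1 and at 72.7, 79.3 and 69.9 in cultured pre-cDC1. H2-Ab1 was at 13.1, 16.1 and 10.1, at 35.6, 42.2 and 38.9 and at 73.2, 81.2 and 72.5 in the same groups.

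The next comparisons each rest on a single cDC1 or pre-cDC2 library, so a missing call says little about movement. From pre-cDC1 to cDC1 none of the 10 was called (edgeR, 2.26% of all genes; 2 members at an unadjusted p under 0.05, 2 with DESeq2), with Ciita at 0.63 (SE 0.19, adjusted p = 0.104) and Cd74 at 0.20 (SE 0.21, adjusted p = 0.699). With the conflicting libraries under their file names Ciita was called higher in cDC1 (0.58, adjusted p = 0.0234). Between the library labelled pre-cDC2 and pre-cDC1 none was called either (edgeR, 0.15% of all genes; 0 at an unadjusted p under 0.05, 0 with DESeq2). Against that library cultured cDC2 had more Ciita, by 1.32 (SE 0.21, adjusted p = 0.00242), 1 of 10 members where 9.95% of all genes were called. With the 4 conflicting libraries kept under their titles that call was lost (0.75, edgeR adjusted p = 0.0833), and under their file names 4 members were called. The share of all genes called was not counted for either labelling. In those 4 libraries Ciita was at 1016 and 922 CPM under the title cDC1 and at 1609 and 2212 under the title pre-cDC2, with Cd74 at 12580, 12960, 21350 and 26460.

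No member was called between cultured cDC1 and cDC2 (edgeR, 3.72% of all genes; 0 at an unadjusted p under 0.05, 0 with DESeq2), with Cd74 at 0.03 (SE 0.22) and Ciita at -0.42 (SE 0.20, adjusted p = 0.339), with a single cDC1 library. With the conflicting libraries added Ciita was called lower in cDC1, by -1.04 under titles (adjusted p = 0.0339) and by -0.48 under file names (adjusted p = 0.0347). Irf8 differed between the same cells by 2.18 (SE 0.15, adjusted p = 8.06e-06). Between wild-type cDC1 with MSCV and the untransduced cDC1 library no member was called (edgeR, 0.256% of all genes; 0 at an unadjusted p under 0.05, 0 with DESeq2).

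In primary cells members rose at both steps between MDP and splenic pre-cDC1. From MDP to marrow pre-cDC1 6 of 10 members rose, where 8.24% of all genes were called: Cd74 by 4.47 (SE 0.84, adjusted p = 0.0156), H2-Aa by 2.52, H2-DMb2 by 1.95, H2-DMb1 by 1.80, H2-Ab1 by 1.55 and H2-DMa by 1.44. Without MDP replicate 1 the Cd74 call was lost (4.67, adjusted p = 0.065). Ciita, at 0 in 2 of the 3 MDP libraries, had an edgeR adjusted p of 0.177. Without MDP replicate 2 every MDP library left was at 0. The fitted difference was then 14.9 (edgeR adjusted p = 0.000585), a value that rests on counts of 0. From marrow to splenic pre-cDC1 4 members rose where 1.88% of all genes were called: Cd74 by 4.24 (SE 0.83, adjusted p = 0.0462), H2-Ob by 3.07 (SE 0.32, adjusted p = 0.00397), H2-Oa by 1.64 and H2-Ab1 by 1.28. Raw H2-Ab1 counts in splenic pre-cDC1 ran from 1863 to 2001, in the narrow range described above, so its value carries that limit. The count of members called was 1 without any 1 of the marrow libraries or without splenic replicate 1. It was 2 without splenic replicate 2, and 8 with replicates 1 and 2 alone. The share of all genes called was not counted for these fits. B-cell markers (8 genes summed) ran from 40.6 to 63.9 CPM in marrow pre-cDC1 and from 51.7 to 282 in splenic pre-cDC1, where none of the 8 was at 0 in every library; B cells also make class II and H2-O. Their part in the result was not tested. Splenic cDC1 against splenic pre-cDC1 gave no call (edgeR, 0.6% of all genes; 0 at an unadjusted p under 0.05, 0 with DESeq2).

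Most members were higher in cultured MDP and pre-cDC1 than in those from marrow. CDP, with 1 primary library, were not tested. There H2-DMa, H2-DMb1 and H2-DMb2 were lower in culture, with group means of 404.9, 58.45 and 46.43 CPM. The primary CDP library had 595.2, 91.63 and 75.65 CPM. The other members were higher in cultured CDP by group mean. In MDP 9 of 10 members were higher in culture, where 8.28% of all genes were called: H2-Eb1 by 4.99 (SE 0.67, adjusted p = 0.00118), Cd74 by 5.29 (SE 0.64, adjusted p = 0.000594), H2-Aa by 2.84 (SE 0.29, adjusted p = 0.000177) and Ciita by 5.60 (SE 1.38, adjusted p = 0.0323). The Ciita value was fitted against a group with 2 of 3 libraries at 0, and its call was lost without any 1 cultured MDP library. H2-DMa was not called (0.49, SE 0.18, adjusted p = 0.13). Raw counts in cultured MDP varied little, from 1246 to 1341 for H2-Aa and from 1038 to 1101 for H2-Eb1. The part of these narrow ranges in the H2-Aa and H2-Eb1 differences was not tested. The cDC1 markers summed to 54.1 to 60.5 CPM in primary and 199 to 224 in cultured MDP, the 10 maturation genes to 7.57 to 19.7 and 87.6 to 117, and the 8 progenitor markers to 1310 to 1560 and 780 to 923. Their part in the result was not tested. In pre-cDC1 9 members were higher in culture than in marrow, where 21.9% were called: Cd74 by 4.73 (SE 0.62, adjusted p = 0.00045), H2-Ob by 3.36 (SE 0.28, adjusted p = 2.8e-05) and H2-Oa by 1.88 (SE 0.19, adjusted p = 0.000102). Ciita, with every cultured library above every marrow library, had an adjusted p of 0.0841. From marrow to cultured pre-cDC1 the cDC1 markers went from 381 to 416 CPM to 1740 to 2080 and the maturation genes from at most 114 to between 757 and 1180. The cDC2 markers went from 1640 to 2030 CPM to 503 to 662, the 7 plasmacytoid markers from 856 to 1820 to 301 to 407, and the monocyte and macrophage markers from 442 to 759 to 101 to 116. Their part in the result was not tested.

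The step from MDP to pre-cDC1 differed between culture and marrow for 2 members, where the difference was called for 11.4% of all genes. H2-Ob went from 9.70, 14.6 and 7.49 CPM in marrow MDP to 7.18, 5.93 and 8.95 in marrow pre-cDC1, and in culture from 21.8, 27.0 and 34.9 to 76.4, 82.0 and 68.4. The difference of the steps was 2.02 (SE 0.36, adjusted p = 0.00621). H2-Aa went from 6.07, 7.25 and 2.68 CPM to 28.2, 33.3 and 31.4 in marrow and from 36.6, 38.9 and 43.8 to 66.6, 73.4 and 66.3 in culture, a difference of -1.69 (SE 0.38, adjusted p = 0.0174), with its cultured pre-cDC1 counts in the narrow range described above. Raw H2-Aa counts in cultured MDP also varied little, from 1246 to 1341 at totals from 26944130 to 35112453. The part of this limit in the H2-Aa difference was not tested. Without marrow MDP replicate 2 the count of members was 4, with Ciita among them at -12.64, fitted against marrow MDP libraries at 0. Without marrow pre-cDC1 replicate 3 the count was 5. The share of all genes called was not counted for these 2 fits.

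**Figure D3:**
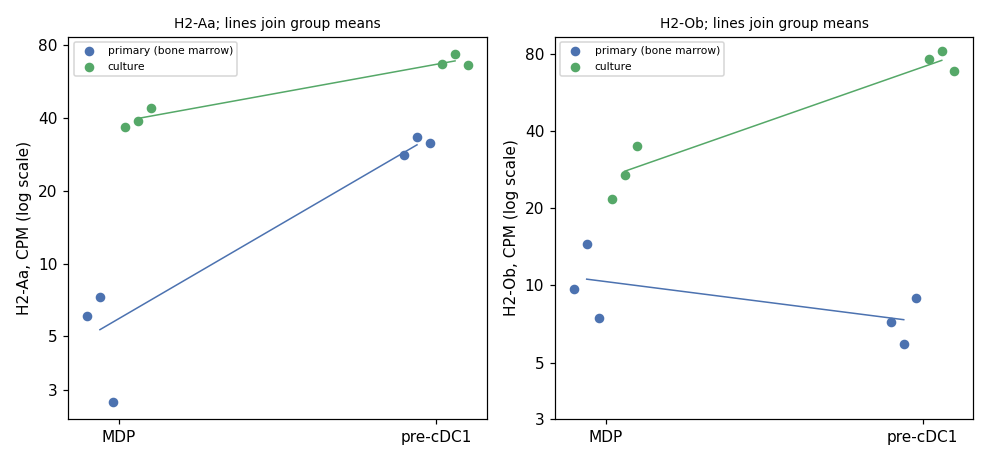
CPM on a log scale of H2-Aa (left) and H2-Ob (right) in MDP and pre-cDC1 libraries from bone marrow and from culture; lines join group means. H2-Ob rises in culture, to 68.4 to 82.0 CPM, and stays between 5.93 and 8.95 in marrow pre-cDC1.

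Irf8 itself, the gene whose enhancers were deleted, was at 3292, 3423 and 3545 CPM in wild-type pre-cDC1, at 536, 468 and 474 in d+32, at 1243, 1334 and 1103 in d+32het and at 917, 938 and 1096 in d+56het. Every library of a deleted group lay below every wild-type one.

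Cd74 fell in all 3 genotypes, and Ciita fell in d+56het. Cd74 was at 22090, 23640 and 19510 CPM in wild-type pre-cDC1, at 10630, 10510 and 12350 in d+32, at 11310, 10270 and 7372 in d+32het and at 6090, 6918 and 5289 in d+56het. It fell by 0.97 in d+32 (SE 0.16, adjusted p = 0.00665), fell by 1.18 in d+32het (SE 0.16, adjusted p = 0.00337) and fell by 1.82 in d+56het (SE 0.16, adjusted p = 0.000117). It kept its call in all 12 alternatives of each. Ciita was at 1413, 1309 and 1303 CPM in wild type and at 777, 758 and 708 in d+56het, a fall of 0.83 (SE 0.12, adjusted p = 0.0014). In d+32 it was at 1553, 1640 and 2158, a difference of 0.40 that was not called (SE 0.12, adjusted p = 0.0905; DESeq2 calls it, adjusted p = 0.00483), and in d+32het at 1427, 1297 and 1399 (0.03, SE 0.12, adjusted p = 0.924).

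The count of members called was 1 in d+32 (4.52% of all genes), 2 in d+32het (3.71%) and 5 in d+56het (12.4%), all lower. Beside Cd74, d+32het had H2-DMb1 (-0.39, SE 0.09, adjusted p = 0.0442), a call lost in 10 of 12 alternatives, including the removal of any 1 library. In d+56het H2-DMb2 fell by 0.56 (SE 0.11, adjusted p = 0.00686), H2-DMb1 by 0.48 (SE 0.09, adjusted p = 0.00705) and H2-Ob by 0.61 (SE 0.12, adjusted p = 0.00976; 0.053 with replicates 1 and 2 alone). H2-DMa was at -0.06 there (SE 0.10, adjusted p = 0.775). The classical chains lay between -0.28 and -0.09 in all 3 genotypes and none was called, at counts in the narrow range described above. The median over the 10 members was -0.19 in d+32 and d+32het and -0.45 in d+56het, against 0.00, -0.01 and 0.01 over all genes.

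The genotypes were set against each other within the same fit. Ciita was lower in d+56het than in d+32het by -0.86 (SE 0.12, adjusted p = 0.0209), the only member called among 0.526% of all genes, and was not called with replicates 1 and 2 alone (adjusted p = 0.08). Cd74 differed by -0.65 (SE 0.16, adjusted p = 0.117; 0.0389 without d+32het replicate 3). Between d+32 and d+32het no member was called (edgeR, 0.0689% of all genes; 1 at an unadjusted p under 0.05, 1 with DESeq2), while Irf8 was lower in d+32 by -1.32 (SE 0.10, adjusted p = 0.00135).

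**Figure D4:**
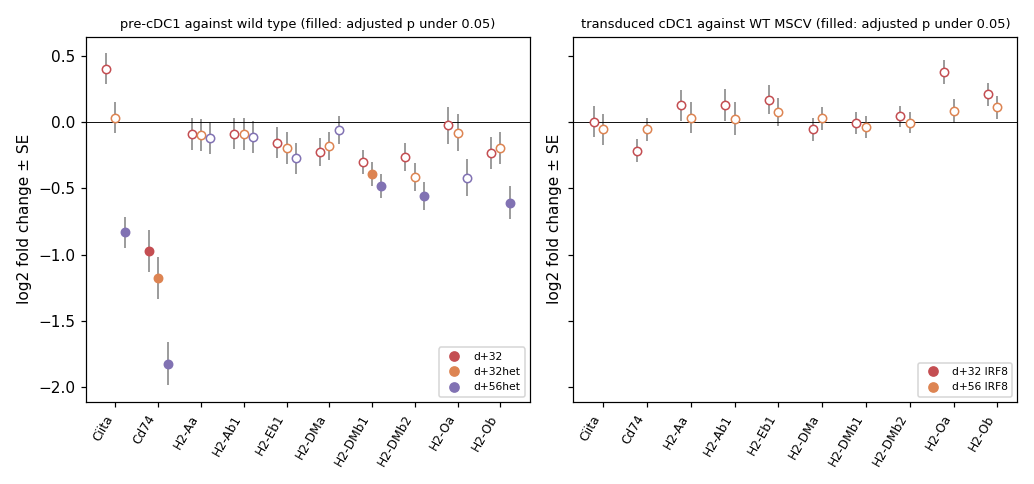
log2 fold change with its standard error of the 10 members in pre-cDC1 of 3 genotypes against wild type (left) and in IRF8-transduced cDC1 against wild-type MSCV cDC1 (right); filled points have an edgeR adjusted p under 0.05. Cd74 is filled in all 3 genotypes on the left, from -0.97 to -1.82, and no point is filled on the right.

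The ratio of Cd74 to Ciita counts, which does not depend on how libraries are scaled, moved with genotype. It was 15.0 to 18.1 in wild-type pre-cDC1, 5.72 to 6.85 in d+32, 5.27 to 7.93 in d+32het and 7.47 to 9.13 in d+56het. No deleted library reached the wild-type range. It was 8.03 to 9.68 in cDC2, 11.9 to 13.3 in MSCV cDC1 and 10.5 to 11.2 and 11.9 to 13.8 in d+32 and d+56 cDC1 with IRF8. H2-DM over H2-O counts stood at 15.6 to 16.8 in wild type, 14.2 to 16.1 in d+32, 13.5 to 16.6 in d+32het and 16.3 to 23.7 in d+56het, a ratio that rests on the H2-O counts, which varied less than the totals did.

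**Figure D5:**
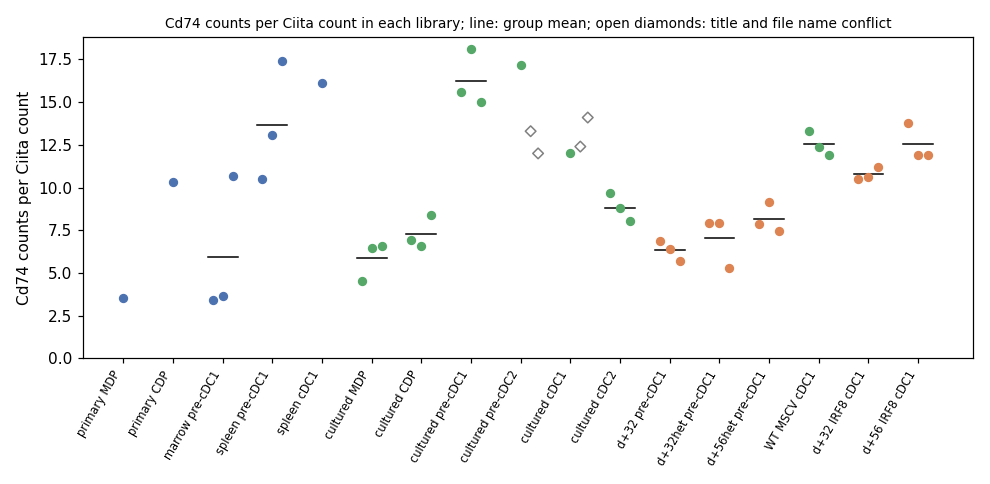
Cd74 counts per Ciita count in each library by group; points are libraries, lines are group means, open diamonds are libraries whose title and file name conflict. Wild-type cultured pre-cDC1 lie at 15.0 to 18.1, and pre-cDC1 of the 3 deleted genotypes at 5.27 to 9.13.

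Marker genes of the deleted pre-cDC1 libraries moved along with these members. The 8 cDC1 markers summed to 1740 to 2080 CPM in wild type, 290 to 344 in d+32, 428 to 655 in d+32het and 275 to 310 in d+56het. The 8 cDC2 markers summed to 503 to 662, 2710 to 3550, 2080 to 2160 and 2680 to 3390 CPM in the same order, and the 7 plasmacytoid dendritic cell markers to 301 to 407, 763 to 807, 1090 to 1360 and 1880 to 2790. In that order the monocyte and macrophage markers summed to 101 to 116, 255 to 278, 215 to 265 and 311 to 358 CPM. Progenitor markers summed to 364 to 417, 409 to 490, 259 to 410 and 179 to 212 CPM. The 10 maturation genes summed to 757 to 1180 CPM in wild type and to at most 435 in the deleted groups. B-cell markers summed to at most 64.9 CPM, with Pax5 and Ebf1 at 0 in every library of the 4 groups. The part of these marker differences in the fall of Cd74 and Ciita was not tested.

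In cDC1 given IRF8 no member was called. Cd74 was at 22750, 24890 and 24660 CPM in wild-type MSCV cDC1, at 23520, 20470 and 18460 in d+32 cDC1 with IRF8 and at 24710, 22310 and 22830 in d+56 cDC1 with IRF8. Ciita was at 1704, 2011 and 2073, at 2232, 1932 and 1655 and at 1797, 1881 and 1915. The ranges overlap in both genes. The log2 difference of Cd74 was -0.06 in d+56 (SE 0.09, adjusted p = 0.868) and -0.22 in d+32 (SE 0.09, adjusted p = 0.262), and that of Ciita -0.06 and 0.00 (SE 0.12 each). The counts were 0 of 10 for d+56 against MSCV (edgeR, 1.65% of all genes; 0 at an unadjusted p under 0.05, 0 with DESeq2), 0 for d+32 (2.07%; 3 at an unadjusted p, 2 with DESeq2) and 0 between the deletions (1.05%; 1 at an unadjusted p, 1 with DESeq2). H2-Oa stood at 27.1, 26.2 and 25.9 CPM in MSCV cDC1 and at 33.3, 36.1 and 33.8 in d+32 cDC1 with IRF8, groups that do not overlap, with an adjusted p of 0.0779 in edgeR and 0.000646 in DESeq2. Irf8 counts, which do not separate vector from endogenous transcripts, were 1538, 1273 and 1203 CPM in d+32 cDC1 with IRF8 against 3436, 3508 and 3784 in MSCV cDC1, and 3847, 3512 and 3507 in d+56. These cDC1 have no empty-vector library of a deleted genotype beside them, so the effect of IRF8 itself was not measured. The 8 cDC1 markers summed to 3710 to 4070 CPM in MSCV cDC1. With IRF8 they summed to 3110 to 3500 in d+32 and 4000 to 4360 in d+56. In the same order the cDC2 markers summed to 203 to 304, 1080 to 1250 and 477 to 546 CPM. Monocyte and macrophage markers summed to 65.9 to 94.4, 179 to 256 and 122 to 181. Maturation genes summed to 296 to 312, 368 to 404 and 652 to 713. Their part was not tested.

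Other genes of the pathway moved in smaller numbers. Of 10 genes for the complex that recruits CIITA and its coactivators, Rfxap, Rfx5 and Rfxank, the subunits of RFX, rose from cultured CDP to pre-cDC1 by 0.58, 0.98 and 0.31, and no other was called, a share of 3 in 10 where 23.3% of all genes were called. None of the 10 was called in d+32 or d+32het, where edgeR called 4.52% and 3.71% of all genes. At an unadjusted p under 0.05 in edgeR there were 1 and 0, and with DESeq2 1 and 0. In d+56het 1 of the 10 was called, where 12.4% of all genes were: Crebbp, a coactivator, fell by 1.05. In d+32 cDC1 with IRF8 3 of the 10 were lower than in MSCV cDC1, where 2.07% of all genes were called: the coactivators Crebbp (-0.84), Kat2b (-0.75) and Ep300 (-0.61). Of 7 genes reported to regulate Ciita, 4 rose from CDP to pre-cDC1, against the same 23.3%, among them Bcl6, a repressor, by 1.89. In the deleted pre-cDC1 Irf4, a factor of cDC2, rose by 2.96 in d+32, by 2.65 in d+32het and by 3.25 in d+56het. Irf1, an interferon-induced activator, rose by 0.77 in d+32 and by 0.84 in d+56het, and Bcl6 fell by 1.10 and 1.48 there.

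Among 10 genes for class II processing and turnover, Cd83, which protects surface class II from ubiquitin-driven loss, fell by 2.56 in d+32, fell by 2.96 in d+32het and fell by 3.63 in d+56het, the only 1 called in the first 2. In d+56het, where 12.4% of all genes were called, the reductase Ifi30 and the proteases Lgmn and Ctsd rose by 0.69, 0.57 and 0.65. In cDC1 with IRF8 the protease Ctss was higher than in MSCV cDC1, by 0.64 in d+56 and 0.62 in d+32. Cd83 was higher there in d+56, by 0.95 (adjusted p = 0.00121), and Lgmn in d+32, by 0.86 (adjusted p = 0.0351). Of 7 neighbouring genes in the class II region, only Tap1 and Tap2, which carry peptides for class I, were called in the 3 genotypes. The shares of all genes called were 4.52%, 3.71% and 12.4%, in the order d+32, d+32het, d+56het. In that order Tap1 fell by 1.24, 1.25 and 1.74 and Tap2 by 0.53, 0.52 and 0.82. H2-Ea and its pseudogene were not analysed here. These comparisons share their wild-type libraries.

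Over the 17 group means on a log2 scale, the 10 members ran together, with Pearson's r from 0.768 between H2-DMa and H2-Ob to 0.998 between H2-DMb1 and H2-DMb2, and 0.985 between Ciita and Cd74. Of 8074 other named genes with a mean of at least 10 CPM, those most like Ciita were Slamf7 (r = 0.981), Slc46a3 (0.967), Ier5 (0.962), Tmem51 (0.960) and Ckb (0.958). Those most like the mean of the members were Casp6 (0.980), Ier5 (0.978), Slamf7 (0.974), Ckb (0.968) and Cd86 (0.968). The groups share depth, stage and origin, and the values describe these libraries.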

How the data were processed

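Each library was made from the RNA of roughly 1500 to 10000 cells by SMART-Seq HT amplification and Nextera XT tagging, as the labels' protocols state. The authors deposited a file of expected counts per gene for every library. The submitters' processing notes name RSEM 1.3.3, STAR 2.7.7a and Picard 2.25.0, and as builds GRCm38 and mm10, with no role given. Removal of duplicate reads and the annotation are not given in the sources used here. Strand and molecular identifiers are not recorded.

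Expected counts, of which 22 to 66 values a file were not whole, were rounded. Groups came from titles. In 5 families of related libraries edgeR 4.0.16 (R 4.3.3) was fitted with TMM, filterByExpr, group alone and the quasi-likelihood F test, Benjamini-Hochberg adjusted over all genes, threshold 0.05; groups with 1 library borrow the spread of the others. The standard error is the absolute log2 fold change over the square root of F. CPM is scaled by TMM over all 47 libraries. Alternatives were DESeq2 1.42.0, other scalings, no filter, replicate block, left-out libraries and the conflicting libraries under title or file name. The fit was tested on simulated data. No 2 libraries of a group agreed within sampling noise (lowest chi-square per degree of freedom 18.0). The rule for names covered all 10 members and Irf8 in every comparison and, per other list, the called genes of lowest adjusted p, at most 4; for length, members that were not called, and some that were, are given as counts, and Irf8 and the other lists for some comparisons only; members and lists were chosen with earlier results of these data known. Motif searches were chosen after reading the sequences. Gene positions, promoters and numbers of transcripts come from RefSeq, GRCm38.p6. For counts per base, length was that of a gene's longest transcript in the GENCODE basic annotation. Both a length and a number of transcripts were found for 97.6% of genes.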

Additional observations from a re-analysis of the deposited data

Results flagged for a closer look

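The step from MDP to pre-cDC1 differed between culture and marrow for H2-Ob (2.017 on the log2 scale) and H2-Aa (-1.686). The test was of the difference itself in edgeR (adjusted p = 0.00621 and 0.0174). Raw counts of H2-Aa varied little with depth in the cultured libraries, so its value carries the limit given above. The part of that limit in its difference was not tested. Ciita differed between d+56het and d+32het pre-cDC1, each set against the same wild type, by -0.865 (adjusted p = 0.0209, between 1.19e-11 and 0.08 over its 12 alternatives). No group holds more than 3 libraries, so none was searched for a library far from the others.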

How the results depend on the processing

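Of 248 recounts of the members called, 207 stayed within 1.5 times the count reported. The share of all genes called was counted for the main fits only. A recount therefore cannot separate a change in the members from a change in how many genes were called. With DESeq2 the counts were 3 for d+32 and 3 for d+56het against d+32het, 1 for d+32 against d+32het, 2 for d+32 cDC1 with IRF8, 1 between the IRF8 groups, 2 for cultured CDP against MDP and for cDC1 against pre-cDC1, 7 for splenic against marrow pre-cDC1 and 4 for the difference of steps. The replicate block in edgeR gave 1 for d+32het, 0 for d+56het against d+32het (Ciita, adjusted p = 0.0501) and 1 for spleen against marrow. It also lost Cd74 in marrow pre-cDC1 against MDP (adjusted p = 0.0671). Same-numbered libraries did not deviate together in general, with median correlations between -0.0742 and 0.0246 over the 5 families. Single same-numbered pairs ran from -0.298 to 0.286, both between replicate 3 libraries of primary cells. Whether replicate 3 libraries share a batch was not tested. Replicates 1 and 2 alone gave 1 for d+32het, 0 for d+56het against d+32het and for CDP against MDP, 8 for spleen against marrow and 6 for the difference of steps. Plain library totals gave 1 for d+32het and 4 for the difference of steps, and no filter 1 for d+32het. Conflicting libraries under their titles gave 0 for CDP against MDP and for cDC2 against pre-cDC2 and 1 for cDC1 against cDC2; under file names they gave 1 for cDC1 against pre-cDC1, 4 for cDC2 against pre-cDC2 and 1 for cDC1 against cDC2. Leaving out 1 library gave 1 to 1 for d+32het, 1 to 2 for d+56het against d+32het and for CDP against MDP, 1 to 5 for spleen against marrow and 2 to 5 for the difference of steps; the ranges were 1 to 1 for d+32, 5 to 5 for d+56het, 10 to 10 for pre-cDC1 against CDP, 5 to 7 for marrow pre-cDC1 against MDP, 8 to 9 for MDP and 7 to 9 for pre-cDC1 in culture against marrow. The causes were not tested.

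Some differences that were not called changed sign, not all of them near 0: with replicates 1 and 2 alone Ciita in d+32het (-0.005344), Cd74 in d+32 against d+32het (-0.02447) and Cd74 in the difference of steps (0.6003; 0.06438 without marrow pre-cDC1 replicate 3, lowest -0.9652). In the IRF8 groups Ciita read 0.006362 in d+56 without MSCV replicate 3 (lowest of these leave-outs -0.1311), -0.0769 in d+32 without MSCV replicate 1, -0.1138 in d+32 (highest 0.1032) and 0.06479 between deletions (lowest -0.1596) without d+32 replicate 1. Under titles pre-cDC2 against pre-cDC1 read 0.3077 for Ciita and 0.04915 for Cd74, cDC1 against pre-cDC1 -0.3547 for Cd74, cDC2 against pre-cDC2 -0.02156 for H2-DMa, cDC1 against cDC2 -0.5276 for Cd74, and MSCV against untransduced cDC1 0.5183 for Ciita and 0.5096 for Cd74. Cd74 in cDC1 against cDC2 read -0.03837 with plain totals and -0.03741 with the replicate block, and in MSCV against untransduced cDC1 0.03108 and 0.01207. The classical chains carry the limit given above, as their raw counts vary less than the library totals in cells beyond the early stages. Intervals are not given for levels, which are means over libraries.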
